A study of Mus musculus with 6 samples.

Results

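The expression of 9 genes that encode laminin chains and nidogens was compared in NME cells, which are sensitive to the EGFR inhibitor AG1478, and in AGR cells, which are resistant to it. The genes were Lama1, Lama3, Lama4, Lama5, Lamb2, Lamb3, Lamc1, Nid1 and Nid2. They were chosen by name as parts of the basement membrane, with earlier results of these data known. All 9 were among the 19938 genes that could be read on the array through an unshared probe set. For each gene the brightest probe set carrying only that gene symbol was read on 3 arrays of NME cells and 3 arrays of AGR cells. NME cells are mouse mammary gland cells (NMuMG) transformed by stable viral overexpression of EGFR, and AGR cells descend from them, so both groups carry the EGFR overexpression. AGR cells came from 1 colony picked from NME cells that were grown in 3D culture on cultrex, a basement membrane extract, with 1 µM AG1478. The colony was then expanded in 2D culture before RNA was taken, and the resistant cells were kept without drug. Both cell lines were grown in DMEM with serum and insulin. As the AGR group comes from 1 colony, a feature of that colony and a feature of resistance cannot be told apart. Whether the 3 arrays of a cell line stand for separate cultures is not given in the sources used here, and the p-values then measure only the spread between these arrays, which may be technical.

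Basement membranes are thin sheets of extracellular matrix beneath epithelia, around vessels, muscle and nerve. Laminins are secreted trimers of an α, a β and a γ chain that polymerize into a network on the cell surface, while type IV collagen forms the other network. Nidogens bind the γ chain encoded by Lamc1 and type IV collagen and so connect both networks. In the mammary gland, laminin that is bound by integrins and dystroglycan supports the polarity of the epithelium and its differentiation.

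All levels are given as log2 of the linear array intensity. Median intensities lay between 190.4 and 200.8, and log2 intensities correlated at 0.995 to 0.997 within a cell line and at 0.986 to 0.988 between the cell lines, across probe sets, which do not count as replicates. The array that stood apart most was AGR replicate 2, where 36 genes lay over 2-fold away from their mean on its partner arrays, against at most 7 genes for any other array. Without it, 2 of the 9 genes were still called higher and 1 lower. Over all genes, 2783 were then called higher and 2573 lower, against 2515 and 2304 with every array. The kept calls therefore do not set the 9 genes apart. No detection calls came with the arrays, so the array midpoint, which is the median over every probe set (7.61 on the log2 scale), served as a mark below which signal and background could not be separated. Of the epithelial markers, Krt8 was bright (14.23 in NME cells, 14.13 in AGR cells), whereas Epcam was below that mark (6.58 and 6.51). The cell lines were compared with limma (a linear model with moderated variances), and a gene was called at an adjusted p under 0.05 (Benjamini-Hochberg, over all 19938 genes).

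Nid1 changed most among the 9 genes. It was higher in AGR cells by a fold change (FC) of 2.32, Lamb3 was higher by a FC of 1.19, and Lamc1 was lower, at 74.9% of its level in NME cells. The other 6 genes were not called. The count of 3 called out of 9 stands beside 24.2% of all genes called at the same threshold. For 2 higher and 1 lower, the shares of all genes were 12.6% called higher and 11.6% called lower. A FC above 2 together with the call was met by Nid1 alone, and by 3.0% of all genes. The median log2 FC of the 9 genes was -0.07, against -0.02 for all genes. The values of the AGR arrays lay wholly outside those of the NME arrays for 6 of the 9 genes, against 36.4% of all genes. A change in the share of cells that express a gene and a change in RNA per cell cannot be told apart in these bulk samples.

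**Figure D1:**
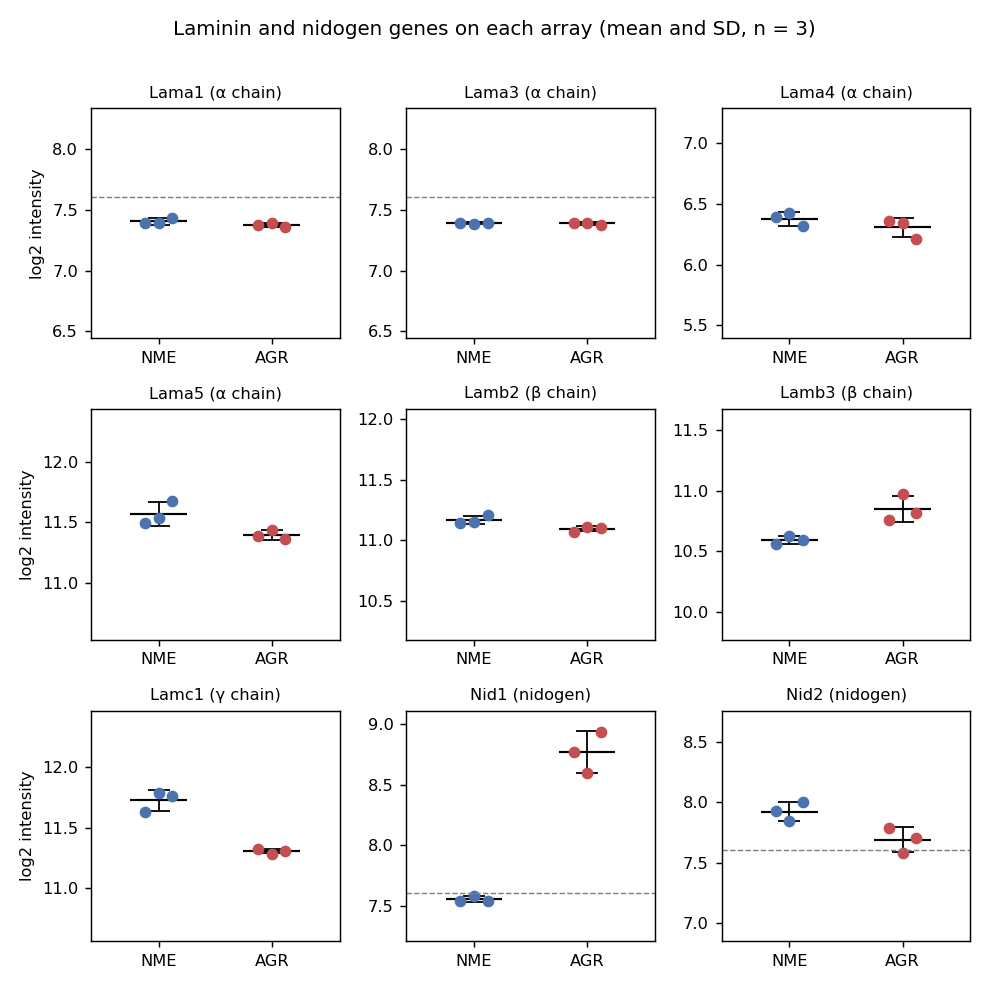
Log2 intensity (y axis) of each laminin and nidogen gene on the 3 NME arrays (blue) and the 3 AGR arrays (red). Bars are the mean and SD (n = 3), every panel spans the same height, and the dashed line is the array midpoint (7.61) where it falls inside the panel. The AGR points of Nid1, at 8.77 on average, lie above the NME points, at 7.55.

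Nid1 encodes nidogen-1, the linker of laminin and type IV collagen. On the NME arrays Nid1 had log2 intensities of 7.54, 7.58 and 7.54, and on the AGR arrays of 8.77, 8.60 and 8.94. The NME values sat close together just below the array midpoint, and each AGR array was more than 1 log2 unit above all of them. The log2 FC was 1.21 (SE 0.09, 95% interval 1.01 to 1.42, adjusted p = 0.000133 from limma), which ranked 419 of all genes by size. Since the NME level could not be separated from background, the size of this FC is uncertain. The study names Nid1 in a list made partly from these same arrays, so its change here is not independent evidence.
Nid2 encodes nidogen-2, which binds the same partners in many basement membranes. Its log2 intensities were 7.92, 7.84 and 8.001 in NME cells and 7.78, 7.58 and 7.70 in AGR cells, so the groups did not overlap and the AGR arrays were the lower ones. The AGR values lay near the array midpoint (7.61), and that of AGR replicate 2 fell below it, so the size of the change is uncertain. The log2 FC was -0.23 (SE 0.07, 95% interval -0.40 to -0.07), which missed the threshold with an adjusted p of 0.0507 from limma. Nid2 was called lower in 5 of 15 alternative settings (adjusted p from 0.0318 to 0.164 over the settings), among them the fit without AGR replicate 1 (adjusted p = 0.0446). Measured within each array, the log2 ratio of Nid1 to Nid2 was 1.45 higher in AGR cells (SE 0.10). The size of this difference is uncertain too, as Nid1 in NME cells and Nid2 in AGR cells lay near the array midpoint. An exact permutation test of this difference gave p = 0.1 (two-sided), the smallest value that 3 against 3 arrays allow. As Nid1 was higher and Nid2 lower without overlap, this p was fixed in advance and adds no evidence. The p was also 0.1 after adjustment over 4 such pairs, which were chosen after the values had been seen.

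The sequence before the start of a gene is shown for the genes called higher, because it is the region where their transcription is set up. RefSeq windows (GRCm38.p6) were matched for 4 of the 9 genes, Lama5, Lamb2, Lamb3 and Nid1. Each stretch below is the 250 bases before the start site, 5′ to 3′ on the strand of the gene, Nid1 from chr13:13437352-13437601 (plus strand) and Lamb3 from chr1:193301744-193301993 (plus strand). Capitals mark matches to 5 motifs searched on both strands. The AP-1 motif was TGANTCA. The TEAD motif was GGAATG. The GC box was GGGCGG. The CCAAT box was searched by the letters of its name, and the TATA box was TATAAA.
Nid1: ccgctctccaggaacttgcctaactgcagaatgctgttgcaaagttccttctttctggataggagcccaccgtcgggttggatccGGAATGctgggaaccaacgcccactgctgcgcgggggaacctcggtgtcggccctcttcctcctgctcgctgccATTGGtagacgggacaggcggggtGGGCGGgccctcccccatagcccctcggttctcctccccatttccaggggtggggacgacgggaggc
Lamb3: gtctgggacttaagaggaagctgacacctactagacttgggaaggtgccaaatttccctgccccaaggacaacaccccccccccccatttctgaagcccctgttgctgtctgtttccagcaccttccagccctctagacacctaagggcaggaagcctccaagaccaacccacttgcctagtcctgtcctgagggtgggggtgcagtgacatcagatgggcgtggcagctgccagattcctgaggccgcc
The Nid1 stretch held 1 match each to the TEAD, CCAAT box and GC box letters, in this order toward the start site, and they did not overlap. Of all 32851 windows of this length, 12.6% held the TEAD letters, 33.8% the CCAAT letters and 32.7% the GC box letters. The Lamb3 stretch held none of the 5 motifs, nor did that of Lamb2, while the window of a second RefSeq start of Lamb3, not shown, held 1 TEAD match. Neither AP-1 nor TATA letters were in any of these windows, against 6.75% and 12.4% of all windows. The stretch of Lama5, which is rich in G and C (72.4%), held 4 GC boxes. A match is a description of the letters and not a bound site.

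Lamb3 encodes the β chain of the epithelial laminin that anchors cells at hemidesmosomes. It had log2 intensities of 10.56, 10.63 and 10.60 in NME cells and of 10.76, 10.97 and 10.81 in AGR cells. Every AGR array was above every NME array, and AGR replicate 2 was the highest. The log2 FC was 0.25 (SE 0.06, 95% interval 0.10 to 0.40, adjusted p = 0.0276 from limma). The call was not kept with the two-sided test of the study's methods (adjusted p = 0.0873), nor without NME replicate 1, 2 or 3 or AGR replicate 3 (adjusted p from 0.0633 to 0.101 in limma).
Lamb2 encodes a β chain known from the kidney glomerulus and the neuromuscular junction. It was bright on all arrays, at 11.15, 11.15 and 11.21 in NME cells and 11.07, 11.11 and 11.10 in AGR cells. The AGR arrays lay just below the NME arrays without overlap, but the log2 FC of -0.07 (95% interval -0.17 to 0.03) was not called (adjusted p = 0.293 from limma). The log2 ratio of Lamb3 to Lamb2 was 0.32 higher in AGR cells (SE 0.06, exact permutation test, two-sided, p = 0.1, the smallest possible). Lamb3 was higher and Lamb2 lower without overlap, so this p was fixed in advance.

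Lamc1 encodes the γ chain found in most laminins, the one that nidogen binds. Its log2 intensities were 11.63, 11.79 and 11.76 in NME cells and 11.32, 11.29 and 11.31 in AGR cells. The AGR arrays were nearly identical and all lower than the lowest NME array. The log2 FC was -0.42 (SE 0.05, 95% interval -0.55 to -0.29, adjusted p = 0.00171 from limma), and Lamc1 was called lower in all 15 alternative settings. Nid1 and Lamc1, whose products bind each other, therefore changed in opposite directions.

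Of the 4 α chain genes, Lama5 was bright and the other 3 were dim. Lama5 encodes the α chain that is widespread in adult epithelia. It lay at 11.50, 11.54 and 11.68 in NME cells and at 11.38, 11.44 and 11.36 in AGR cells. The groups did not overlap and AGR cells were lower, with a log2 FC of -0.17 (SE 0.06, 95% interval -0.32 to -0.03) that was not called (adjusted p = 0.0824 from limma) and was called in none of the alternative settings (adjusted p from 0.0607 to 0.222).
Lama3, whose product pairs with that of Lamb3, had log2 intensities of 7.40, 7.38 and 7.40 in NME cells and 7.40, 7.40 and 7.38 in AGR cells. The deposited intensity was the same number on 4 of the 6 arrays. Such equal numbers on at least 2 arrays were found for 39.4% of the probe sets below the array midpoint and for 15.0% of those above it. The log2 FC of Lama3 was 0.00 (95% interval -0.09 to 0.09, adjusted p = 0.989 from limma), with a sign that turned positive under quantile normalization and under centring of the arrays. Thus Lamb3 rose while no change of Lama3 was detectable at this low signal.
Lama1, the α chain gene of early embryos and of the tumor from which basement membrane extracts are made, ranged from 7.39 to 7.44 in NME cells and from 7.36 to 7.39 in AGR cells. Its log2 FC was -0.03 (95% interval -0.13 to 0.06, adjusted p = 0.661 from limma). Lama4, known from vessel walls, ranged from 6.31 to 6.42 and from 6.21 to 6.36, with a log2 FC of -0.07 (95% interval -0.21 to 0.07, adjusted p = 0.479 from limma). The values of both genes overlapped between the cell lines. Lama1, Lama3 and Lama4 lay below the array midpoint on every array, so whether they changed could not be judged.

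**Figure D2:**
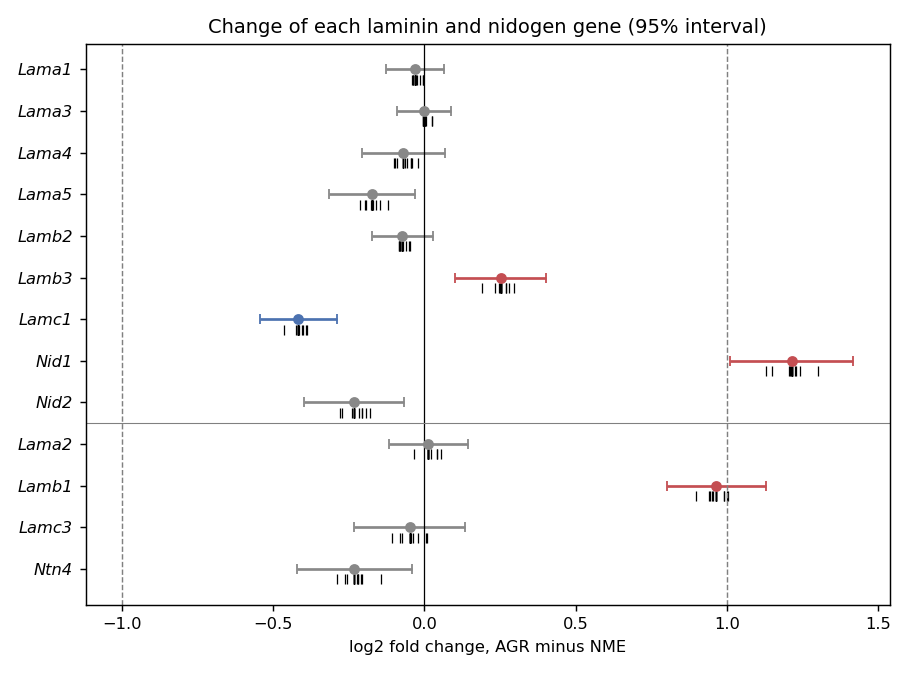
Log2 fold change, AGR minus NME (x axis), of the 9 laminin and nidogen genes and, below the gray line, of 4 other chain genes, with 95% intervals from limma. Red points were called higher, blue points lower and gray points were not called, black ticks under each point are its values in the alternative settings, and a FC of 2 is drawn dashed. Nid1 (1.21) is the only point past a dashed line, and Lamc1 (-0.42) is the only blue one.

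The remaining chain genes of the family were read from the same arrays. Of 4 further laminin and netrin chain genes, 1 was called, which stands beside 24.2% of all genes called. This was Lamb1, which encodes the most widespread β chain. Lamb1 rose from 8.95, 9.04 and 8.92 in NME cells to 9.86, 10.07 and 9.89 in AGR cells, well apart from each other. The log2 FC was 0.96 (SE 0.07, 95% interval 0.80 to 1.13, adjusted p = 0.000138 from limma). Lamb1 and Lamc1, whose products join in many of the same trimers, thus moved in opposite directions, and the log2 ratio of Lamb1 to Lamc1 was 1.38 higher in AGR cells (SE 0.09, exact permutation test, two-sided, p = 0.1, the smallest possible). For Lamb1 against Lamb2 this difference was 1.04 (SE 0.08, the same p). In both pairs Lamb1 was higher and the other gene lower without overlap, so the p was fixed in advance. Lama2, the α chain gene of muscle and peripheral nerve, had a log2 FC of 0.01 and Lamc3 one of -0.05. Ntn4, which encodes a netrin that binds the laminin γ chain and disrupts laminin networks, had a log2 FC of -0.23 (adjusted p = 0.0842 from limma).

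**Figure D3:**
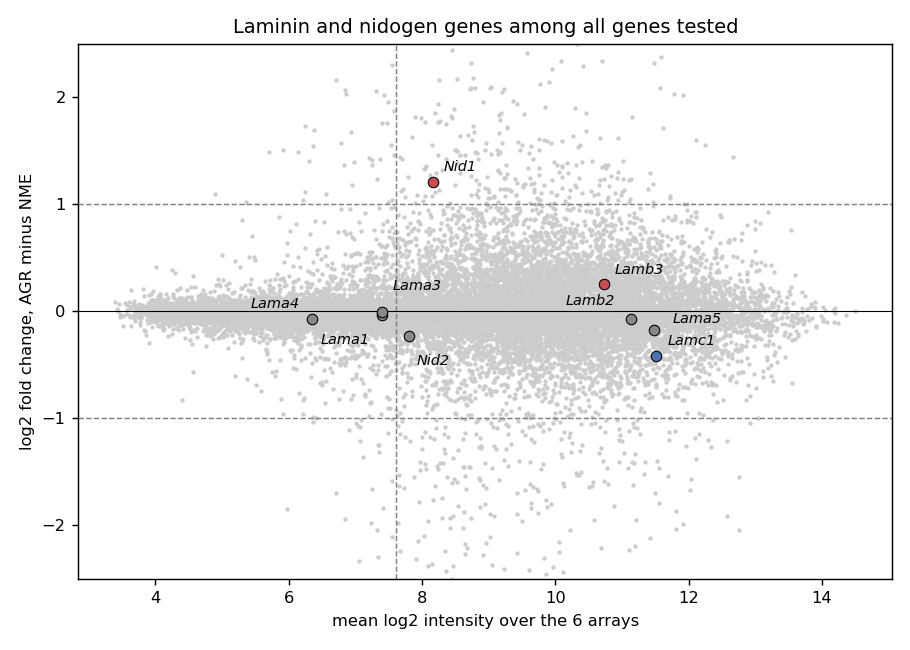
Log2 fold change, AGR minus NME (y axis), against the mean log2 intensity over the 6 arrays (x axis) for all genes tested (light gray). The 9 laminin and nidogen genes are outlined, red where called higher, blue where called lower and gray where not called. The vertical dashed line is the array midpoint (7.61), the horizontal dashed lines mark a FC of 2, and 66 genes lie beyond the plotted range of 2.5 in either direction. Lama1, Lama3 and Lama4 sit left of the vertical line.

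Next, the partners, receptors and proteases of laminins were examined as a list of 49 genes, of which 46 were measured. Of these, 15 were called higher and 6 lower, which is 45.7% against 24.2% of all genes, and the median log2 FC was 0.04. Of the 46 genes, 37 lay above the array midpoint in either cell line, against 11904 of all 19938 genes. The shares thus compare genes of unlike brightness. The list was also chosen with earlier results of these data known, so its higher share is not independent evidence.
Among 6 type IV collagen genes, 2 were called (33.3%, against 24.2% of all genes), both higher. Col4a1 and Col4a2 encode the chains that are present in nearly all basement membranes and are neighbours in the genome. Col4a2 had log2 intensities of 9.15, 9.32 and 9.28 in NME cells and 10.11, 10.07 and 10.14 in AGR cells, a log2 FC of 0.86 (SE 0.06). Col4a1 had a log2 FC of 0.67 (SE 0.07), with all AGR arrays above all NME arrays. Col4a3, Col4a4, Col4a5 and Col4a6, which encode the chains of specialized basement membranes, had log2 FCs between -0.06 and 0.06. Col4a6 lay below the array midpoint (7.01 in NME cells, 6.99 in AGR cells), so whether it changed could not be judged.
All 4 genes of proteoglycans and multiplexins were called, in both directions, against 24.2% of all genes. Hspg2, which encodes perlecan, and Col18a1, which encodes the precursor of endostatin, were higher, with log2 FCs of 0.40 (SE 0.07) and 0.44 (SE 0.05). Agrn, which encodes agrin, a proteoglycan that binds laminin and dystroglycan, and Col15a1 were lower, with log2 FCs of -0.38 (SE 0.05) and -0.37 (SE 0.06). Hspg2 was not called with the two-sided test of the study's methods (adjusted p = 0.0534).
Of 14 other basement membrane glycoproteins, 3 were called (21.4%, against 24.2% of all genes), all higher. Fbln2, which encodes fibulin-2, a binding partner of nidogens and laminins, had log2 intensities of 11.15, 11.32 and 11.20 in NME cells and of 13.68, 13.79 and 13.72 in AGR cells. This was the largest increase of the list, at a log2 FC of 2.51 with an SE of 0.06 (adjusted p = 1.67e-06 from limma). Pxdn, which encodes the peroxidase that cross-links type IV collagen and which is in another such list of the study, had a log2 FC of 1.01 (SE 0.11). Npnt, which encodes the integrin ligand nephronectin, had a log2 FC of 0.13, a call that was lost under the replicate block and without any single array (adjusted p from 0.0683 to 0.123 in these fits). Sparc was bright and near equal in both cell lines, with a log2 FC of 0.01.

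Of 11 laminin receptor genes, 7 were called (63.6%, against 24.2% of all genes), 4 higher and 3 lower. Itga3 and Itgb1, which together encode a receptor for the laminins of epithelia, were higher. Itga3 lay at 11.60, 11.73 and 11.68 in NME cells and at 12.50, 12.65 and 12.51 in AGR cells, a log2 FC of 0.88 (SE 0.06). Itgb1 had a log2 FC of 0.77 (SE 0.04). Itga6 and Itgb4 together encode the hemidesmosome integrin, and they moved apart, with log2 FCs of 0.39 (SE 0.06) and -0.66 (SE 0.04). Itga1, which encodes a receptor subunit for collagens and laminins, fell from 9.64, 9.63 and 9.70 in NME cells to 6.99, 6.66 and 6.49 in AGR cells. Its log2 FC was -2.94 (SE 0.12), and its AGR values were below the array midpoint. Itga7 was lower (log2 FC -0.42), and its AGR values, from 7.27 to 7.46, were also below that mark, so the sizes of both falls are uncertain. Rpsa, which encodes a ribosomal protein also described as a laminin receptor and has many pseudogene copies that its probes may read, was higher with a log2 FC of 0.35, or 0.18 as the mean of all its probe sets. Itga6, Itga7 and Rpsa were named after their values were seen. Dag1, which encodes dystroglycan, had a log2 FC of 0.23 that was not called (adjusted p = 0.29 from limma). Of 3 measured genes for the glycosylation of dystroglycan, 1 was called (33.3%, against 24.2% of all genes). This was Pomgnt1, with a log2 FC of 0.21. Its call was lost without NME replicate 1, AGR replicate 1 or AGR replicate 3 (adjusted p from 0.0622 to 0.0629 in limma).
Of 8 genes that process or degrade laminins and their partners, 3 were called higher and 1 lower (50.0% called, against 24.2% of all genes). Plau, which encodes urokinase, rose from 7.40, 7.25 and 7.39 to 8.74, 9.48 and 9.14, a log2 FC of 1.77 (SE 0.17) that started below the array midpoint. Mmp2 and Bmp1, which encode a gelatinase and a protease that trims laminin chains, had log2 FCs of 0.52 (SE 0.08) and 0.50 (SE 0.04). Plat had a log2 FC of -0.21 (adjusted p = 0.0486 from limma), a call that 9 of 15 alternative settings did not keep, among them each fit without 1 array other than AGR replicate 2.

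**Figure D4:**
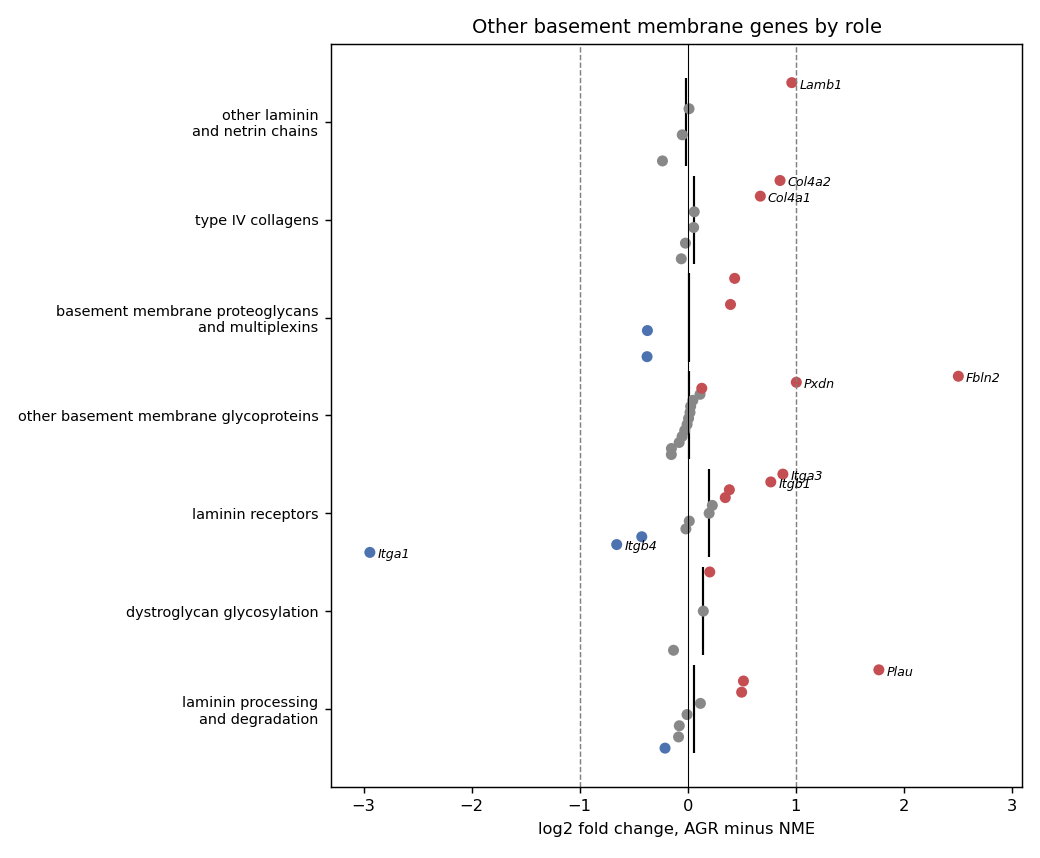
Log2 fold change, AGR minus NME (x axis), of 50 other basement membrane genes grouped by role, the 4 further chain genes included. Each point is a gene, red where called higher, blue where called lower and gray where not called, the black bars are the medians of the groups, and a FC of 2 is drawn dashed. Fbln2 (2.51) and Itga1 (-2.94) lie farthest from 0.

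Over the 6 arrays, the named genes whose log2 intensities followed Nid1 most closely were Dock11, Scara3 and Col12a1, with Pearson correlations of at least 0.999 and log2 FCs of 0.49, 1.15 and 1.06. With 2 groups of 3 arrays, which share cell line and array type, 1216 genes correlated with Nid1 above 0.95, so this is only a description.

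Markers of other cells that make basement membrane were read beside these results, and no marker had a value of 0. The counts of called markers stand beside 24.2% of all genes called. Of 8 fibroblast markers 1 was called higher (Pdgfra, log2 FC 0.39), and the summed intensity of the list ranged from 1742 to 1925 in NME cells and from 1779 to 1903 in AGR cells. Pdgfra lay below the array midpoint in NME cells (7.41), so the size of its change is uncertain. The fibroblast collagen gene Col1a1 had a log2 FC of 0.01. Of 8 endothelial markers, 0 were called by limma, 0 had an unadjusted p under 0.05 and 0 were called by the two-sided test of the methods, with summed intensities of 1189 to 1302 and 1169 to 1233. For 4 measured markers of Schwann cells and muscle these counts were also 0, with sums of 743 to 832 and 751 to 776. Of 6 myoepithelial markers 1 was higher (Acta2, log2 FC 0.44), with sums of 1037 to 1131 and 1109 to 1159. Of 6 leukocyte markers 2 were higher, Cd68 (log2 FC 0.96) and Csf1r (log2 FC 0.28), and the sums were 813 to 861 in NME cells and 1101 to 1158 in AGR cells. The mean of Csf1r in NME cells (7.56) was just below the array midpoint, so the size of its change is uncertain. Ptprc and Adgre1, which define leukocytes and macrophages, lay at 7.08 and 5.95 in NME cells and at 7.14 and 5.99 in AGR cells, below the array midpoint. Of 8 epithelial markers 2 were lower, Krt19 (log2 FC -1.04) and Cdh1 (log2 FC -0.60), and the sums were 55337 to 55949 and 43609 to 44835. The part of the leukocyte and epithelial markers in the laminin and nidogen results was not tested.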

How the data were processed

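Total RNA of NME and AGR cells (3 arrays each) had been hybridized to Affymetrix Mouse Gene 1.0 ST arrays. The values deposited by the authors are intensities on a linear scale. Their notes name MAS5 without version or settings, and the normalization is not given in the sources used here. The cell line of each array came from its title, as the submitters' design text speaks of groups that differ from the labels. Of 35557 probe sets, 21789 carried 1 gene symbol, 1621 several and 12147 none in the platform annotation, and only the first were used. Gene IDs of 21698 matched RefSeq (GRCm38.p6), with 0 differing symbols. The brightest probe set stood for a gene, and log2 was taken with no offset or filter. The comparison of both cell lines used limma 3.58.1 under R 4.3.3 (lmFit, eBayes, Benjamini-Hochberg). The number of arrays limits the precision. The fit was also run on simulated data with 19938 genes, of which 200 were changed. It recovered 51 of 67 genes with a 1.5-fold change. It recovered 65 of 67 with a 2.5-fold change and 65 of 66 with a 4-fold change, and it called 11 of 19738 unchanged genes. On the real arrays 24.2% of all genes were called, far more than were changed in the simulation, so these rates need not hold there.

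All 9 genes are named, with every other laminin or netrin chain measured, up to 4 called genes of each other role by size of change, up to 2 going the other way, and up to 2 examples of each marker list. Beyond this rule, some epithelial and leukocyte markers and the genes Dag1, Sparc and Col4a3 to Col4a6 were named after their values were seen. The genes, the lists and the markers (epithelium, myoepithelium, fibroblasts, endothelium, leukocytes, Schwann cells and muscle) were chosen with earlier results of these data known. The alternatives were quantile normalization, centring of arrays, leaving out dim genes (under the 25th percentile, or under the median), averaging the probe sets of a gene, an offset of 16, trend and robust options of eBayes, the methods' two-sided test, a replicate block and leaving out each array.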

Additional observations from a re-analysis of the deposited data

How the results depend on the processing

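The number of laminin and nidogen genes called higher was 1 with the two-sided test of the study's methods, where Lamb3 was lost, and ranged from 1 to 2 when single arrays were left out. The number called lower was 2, with Nid2 added, under both filters on dim genes, under the trend and robust settings and under the replicate block, and ranged from 1 to 2 without single arrays. Over all genes, 2515 were called higher in the main fit, 1687 with the two-sided test and 1755 to 2783 without single arrays. The numbers of all genes called lower were 2304, 1588 and 1582 to 2573. With the two-sided test, calls were thus fewer over all genes too. The replicate block is not a paired analysis here, because the deviations of NME and AGR arrays of the same number correlated at -0.126, 0.327 and 0.259, and AGR replicate 1 and AGR replicate 3 correlated best with an NME array of another number. It moved no count over all genes by more than 1.5 times. Nid1, Lamc1 and Lamb1 were called under all 15 alternatives. The log2 FC of Lama3 was 0.0232 under quantile normalization and 0.0253 under centring, and -0.0065 to 0.0051 without single arrays. Without single arrays that of Lama2 ranged from -0.0354 to 0.0532 and that of Lamc3 from -0.1085 to 0.0087. None of these was called, and the causes were not tested. Lama1, Lama3, Lama4 and Lama2 were removed by the filter at the median and have no value there. With 3 arrays a group and no detection calls, the change of dim genes cannot be judged.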
